A study of Zea mays with 18 samples.

Results

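The enzymes that load CO2 into the C4 pathway of the maize leaf are described here from 5 gene models of a deposited expression table that lists 45260 features, 43484 of them gene models. The 5 were taken by identifier and not by a limit on their values, though with earlier results of these data known. They were C4 PEP carboxylase (PEPC, Zm00001d046170), pyruvate, orthophosphate dikinase (PPDK, Zm00001d038163), the carbonic anhydrases Zm00001d044099 and Zm00001d044096, and NADP malate dehydrogenase (NADP-MDH, Zm00001d031899). These enzyme names came with the choice of identifiers. The table itself gives identifiers only, and a RefSeq gene table of another build of the B73 genome held 0 of the 5.

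The samples were seedlings of the maize inbred line B73, from seeds germinated in darkness for 3 days and then kept in nutrient solution for 48 h. Each organ was compared between seedlings given 1 nM epibrassinolide (EBL), a brassinosteroid hormone, in that solution and seedlings labelled as controls. The organs were the primary root, the shoot (made up of stem, apex and coleoptile) and the seedling's 1st leaf. Each organ and treatment had 3 biological replicates, which gave 18 samples in 6 groups. All samples carry the same genotype, and the labels name no transgene or mutant. The values are RPKM (reads scaled to feature length and to library size), with 1 value per group as the authors gave it. No value therefore has a replicate error, no test was possible, the depth is unknown, and whether neighbouring levels differ beyond the spread of replicates cannot be told. The order of levels and the differences below describe these 6 columns. In a whole organ, fewer cells of a type and less RNA per cell cannot be told apart.

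In C4 plants, carbon fixation is divided between mesophyll cells and bundle sheath cells. In the mesophyll, carbonic anhydrase turns CO2 into bicarbonate, and PEPC joins bicarbonate to phosphoenolpyruvate to make oxaloacetate. NADP-MDH, in the chloroplast, reduces oxaloacetate to malate, which moves to the bundle sheath and releases CO2 beside Rubisco, and PPDK regenerates phosphoenolpyruvate from the returning pyruvate. The transcripts of these enzymes are known as markers of green mesophyll in the maize leaf. The maize gene for C4 PPDK is also known to give a shorter cytosolic form from a second promoter, and a value per gene model does not separate the forms.

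The levels of the 5 transcripts ordered the organs, with leaves highest by a wide margin. In EBL leaves, the 1 leaf column in which all 5 had a value above 0, they summed to 13898 RPKM, or 0.869% of the column. The sum was 683 RPKM in control shoots and 492 in EBL shoots, 0.0731% and 0.0479% of those columns. In control roots it was 351 RPKM, and in EBL roots 107 RPKM, 0.0368% and 0.0111% of the columns. Both root sums were below both shoot sums, and all of them were far below the leaf.

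Carbonic anhydrase acts first, and its 2 gene models differed in level. Zm00001d044099 was at 5628 RPKM in control leaves, 5270 in EBL leaves, 43.7 in control shoots, 19.2 in EBL shoots, 66.7 in control roots and 4.17 in EBL roots. In control leaves it ranked 18 among the 31941 gene models above 0, and in EBL roots it ranked 18329. Zm00001d044096 was at 845 and 715 RPKM in control and EBL leaves, 28.4 and 22.4 in shoots, and 91.8 and 36.7 in roots. The leaf columns of both gene models were above all their shoot and root columns. The ratio of Zm00001d044099 to Zm00001d044096 was 6.66 in control leaves and 7.37 in EBL leaves, 1.54 and 0.856 in shoots, and 0.727 and 0.114 in roots. Thus Zm00001d044099 was the more abundant carbonic anhydrase transcript in leaves and Zm00001d044096 in roots, in both treatments. Reads that match both gene models equally could have been divided between them by the counting, so the split is less certain than the sum. The sum of both was 6473 and 5985 RPKM in leaves, 72.1 and 41.6 in shoots and 159 and 40.9 in roots, control first.

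PEPC, which makes the first C4 acid, stood at 3954 RPKM in EBL leaves, 158 in control shoots, 92.7 in EBL shoots, 58.2 in control roots and 2.81 in EBL roots. It was listed at 0 in control leaves. PPDK stood at 3265 RPKM in EBL leaves, 264 and 182 in control and EBL shoots, and 123 and 60.0 in control and EBL roots, and it too was listed at 0 in control leaves. For both transcripts the columns with a value followed the order leaves, shoots, roots. The share of all gene models with such an order was not counted. PEPC was the more abundant of the pair in EBL leaves, where the ratio of PPDK to PEPC was 0.826. PPDK was the more abundant in every shoot and root column, with a ratio of 1.67 in control shoots, 1.96 in EBL shoots, 2.12 in control roots and 21.4 in EBL roots.

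NADP-MDH, the enzyme that makes malate, was at 989 and 694 RPKM in control and EBL leaves, 189 and 176 in shoots, and 11.0 and 3.31 in roots. Its columns followed the same order of organs as PEPC and PPDK. It had the smallest step from shoots to leaves of the members with values in both, 5.24-fold in control columns and 3.95-fold in EBL columns. It also had the largest step from roots to shoots, 17.2 in control columns and 53.1 in EBL columns. In shoots it was among the more abundant members, at 27.7% of the summed RPKM of the 5 in control and 35.8% in EBL. In EBL leaves its share was 4.99%, and in roots it was 3.13% in control and 3.09% in EBL.

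**Figure D1:**
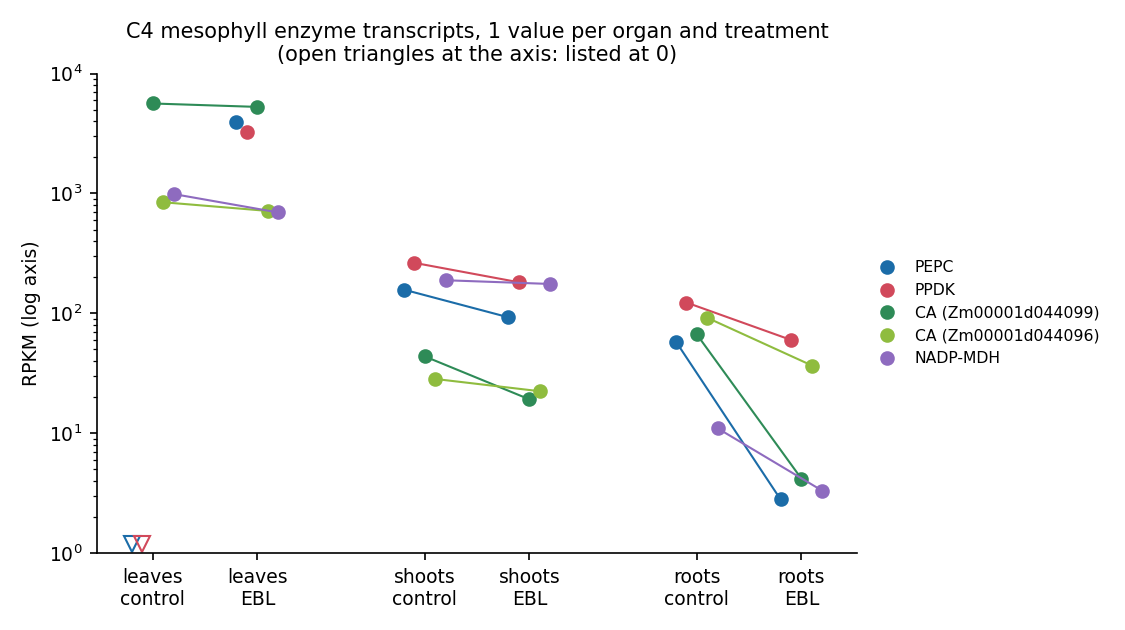
RPKM (log axis) of the 5 gene models in each of the 6 columns, 1 point per organ and treatment, with lines joining control and EBL of an organ and open triangles on the axis for values listed at 0. In EBL leaves the points lie between 694 and 5270 RPKM and in EBL roots between 2.81 and 60.0, and PEPC and PPDK are the 2 listed at 0 in control leaves.

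The organ differences were set against those of all gene models. In the EBL columns, all 5 were at least 8-fold higher in leaves than in roots, on the log2(RPKM + 1) scale used for every difference here, where 5.98% of 25433 gene models were. The log2 differences were 10.02 for PEPC, 9.99 for Zm00001d044099, 7.33 for NADP-MDH, 5.74 for PPDK and 4.25 for Zm00001d044096. PEPC ranked 8 and Zm00001d044099 ranked 9 from the top of that comparison. In the control columns 3 members could be compared, and all 3 passed 8-fold, at 6.38 for Zm00001d044099, 6.37 for NADP-MDH and 3.19 for Zm00001d044096, where 5.1% of 25515 gene models did.

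Against shoots, 4 of the 5 were at least 8-fold higher in EBL leaves, where 2.54% of 25389 gene models were, and NADP-MDH was below that, at 1.97 (log2). Under median-ratio scaling the share of all gene models was 5.06%, and 3.55% in control columns. In control columns 2 of the 3 compared passed, where 1.87% of 25509 gene models did, and NADP-MDH was at 2.38. The carbonic anhydrase Zm00001d044099 had the third largest log2 difference from shoots to leaves of all gene models in control columns, 6.97, and the second largest in EBL columns, 8.03. Between shoots and roots the members divided. In control columns NADP-MDH (3.99), PEPC (1.42) and PPDK (1.09) were higher in shoots on the log2 scale, and the carbonic anhydrases Zm00001d044099 (-0.60) and Zm00001d044096 (-1.66) were higher in roots. Only NADP-MDH passed 8-fold there, where 2.53% of 25700 gene models did. In EBL columns Zm00001d044099 was instead higher in shoots (1.96), Zm00001d044096 remained higher in roots (-0.69), and NADP-MDH and PEPC passed 8-fold, where 3.35% of 25511 gene models did.

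**Figure D2:**
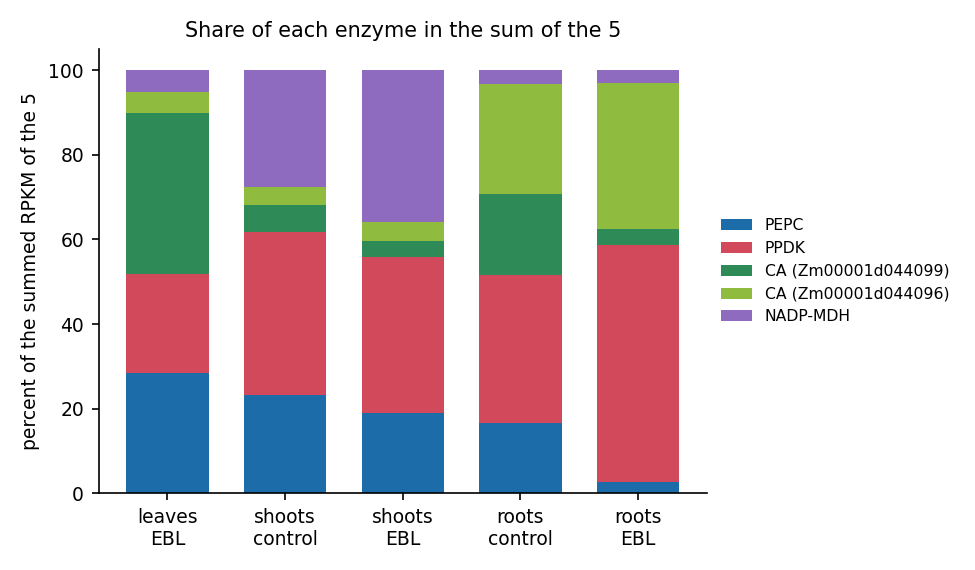
Share of each gene model in the summed RPKM of the 5 (percent, bars from 0 to 100), for the 5 columns in which none was listed at 0. PPDK makes up 23.5% in EBL leaves and 56.1% in EBL roots, while PEPC makes up 28.4% and 2.62%.

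The next comparison was of EBL with control within each organ. In roots all 5 were lower in EBL and all 5 passed 2-fold, where 1.61% of 25741 gene models were at least 2-fold lower. PEPC went from 58.2 to 2.81 RPKM, a log2 difference of -3.96, and Zm00001d044099 from 66.7 to 4.17, a difference of -3.71. They ranked 1 and 2 from the lowest of all gene models compared in roots, and 2 and 4 with a pseudocount of 0.1. NADP-MDH had a difference of -1.47, Zm00001d044096 of -1.30 and PPDK of -1.02, the last just past 2-fold. As ratios of RPKM, PEPC was 20.7-fold and Zm00001d044099 16.0-fold lower in EBL roots, NADP-MDH 3.31-fold, Zm00001d044096 2.50-fold and PPDK 2.05-fold. The members' median log2 difference was -1.47, against 0.05 over all gene models. PPDK and Zm00001d044096 together took most of the sum in EBL roots, 56.1% and 34.3%, from 35.1% and 26.2% in control roots.

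In shoots all 5 were again lower in EBL, and 1 passed 2-fold, where 0.434% of 25599 gene models were at least 2-fold lower. That 1 was the carbonic anhydrase Zm00001d044099, from 43.7 to 19.2 RPKM, a log2 difference of -1.15. When its RPKM was added to that of Zm00001d044096, because of reads the copies may share, the difference was -0.78 and short of 2-fold. PEPC had a difference of -0.76, PPDK of -0.54, Zm00001d044096 of -0.33 and NADP-MDH of -0.10. The members' median was -0.54, against 0.02 over all gene models. The share of all gene models lower by any amount in EBL shoots was not counted, and their 25th percentile was -0.11. PEPC lay above 0.926% and PPDK above 2.31% of all gene models compared in shoots, and NADP-MDH above 26.6%.

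In leaves 3 of the 5 could be compared and all 3 were lower in EBL, 0 of them by 2-fold, where 0.947% of 25458 gene models were at least 2-fold lower and 4.83% at least 2-fold higher. The log2 differences were -0.51 for NADP-MDH, -0.24 for Zm00001d044096 and -0.09 for Zm00001d044099, with a median of -0.24 against -0.01 over all gene models. Since that last median was also below 0, most gene models were lower in EBL leaves too, and their exact share was not counted. NADP-MDH lay above 8.86% of the gene models, Zm00001d044096 above 27.1% and Zm00001d044099 above 41.4%. The leaf columns summed to different totals over gene models, 1006945 RPKM in control and 1256993 in EBL, and the share of Zm00001d044099 in that total was 0.559% and 0.419%. When the columns were scaled to equal sums of the gene models, the median of all gene models in leaves moved to -0.23, the 2-fold calls from 1229 higher and 241 lower to 554 and 747, and the 3 differences to -0.83, -0.56 and -0.41 in the same order.

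**Figure D3:**
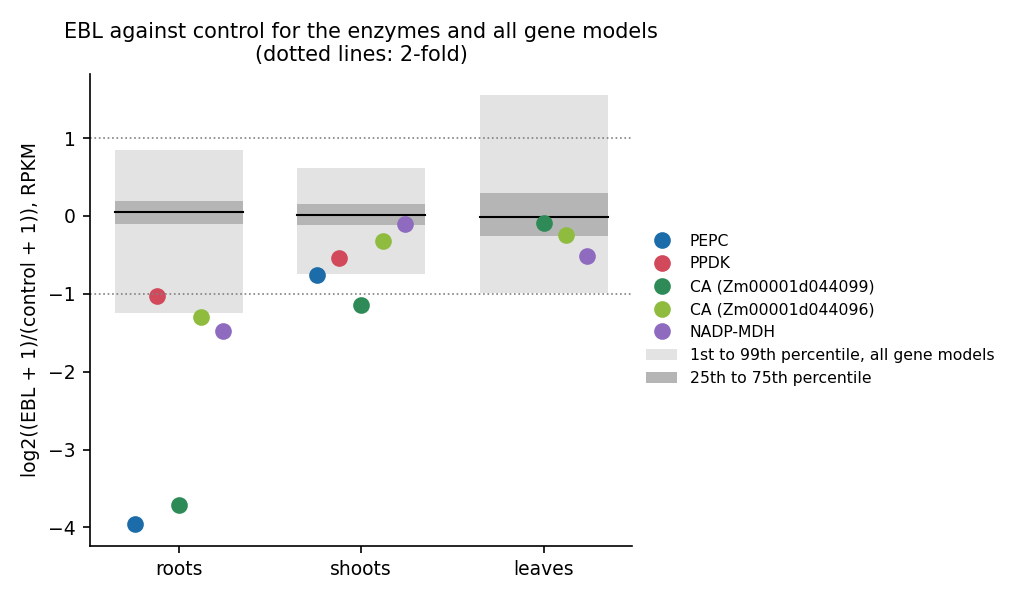
Log2((EBL + 1)/(control + 1)) of RPKM in each organ, with points for the gene models that had a value above 0 in both columns, light and dark grey bars for the 1st to 99th and 25th to 75th percentiles of all gene models, a black line for their median and dotted lines at 2-fold. All points lie below 0; in roots they run from -3.96 to -1.02 and in leaves from -0.51 to -0.09.

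The size of the EBL difference in roots and in shoots was set side by side for each member. The root difference was the lower of the pair in all 5, and the share of all gene models for which this holds was not counted. The root value minus the shoot value was -3.20 (log2) for PEPC, -2.56 for Zm00001d044099, -1.37 for NADP-MDH, -0.97 for Zm00001d044096 and -0.49 for PPDK. Ranked from the lowest of 25354 gene models by this value, PEPC was at 6, Zm00001d044099 at 25, NADP-MDH at 210, Zm00001d044096 at 455 and PPDK at 1873. These differences between organs were not tested, since each organ has 1 value per treatment.

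Other transcripts of the leaf moved in the same columns, and their values stand beside the members' here. Leaf-enriched gene models were those whose log2 level, averaged over the control and EBL columns, came to 10 RPKM or more in leaves and exceeded that of shoots and that of roots by 8-fold or more. The members were left out of this group, and NADP-MDH, PEPC and PPDK did not meet its rule. NADP-MDH was above shoots by only 2.38 (log2) in control and 1.97 in EBL columns. PEPC and PPDK fell short because of the 0 listed in control leaves. The group held 362 gene models. In roots 352 could be compared, of which 290 were lower in EBL and 62 higher, with 128 at least 2-fold lower (36.4%). When the group was defined without the root columns, 377 of 530 were lower and 153 higher, with 142 at least 2-fold lower (26.8% of the 530), and the median difference was -0.33 (log2). For the 352, the summed RPKM in roots was 4118 in control and 1814 in EBL, and the median difference was -0.52 (log2). Of the 118 with 500 RPKM or more in EBL leaves, a limit chosen after the data were seen, 112 were lower in EBL roots, 96 of them by 2-fold or more, with a median of -1.88. Among these 118, 0 were lower than PEPC or Zm00001d044099, 81 were lower than NADP-MDH, 84 lower than Zm00001d044096 and 95 lower than PPDK. With a pseudocount of 0.1 in place of 1, 1 of the 118 was lower than PEPC and 1 lower than Zm00001d044099, so all 5 members then lay inside the range of these gene models. Leaf material in the root samples as a part of these differences was not tested.

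**Figure D4:**
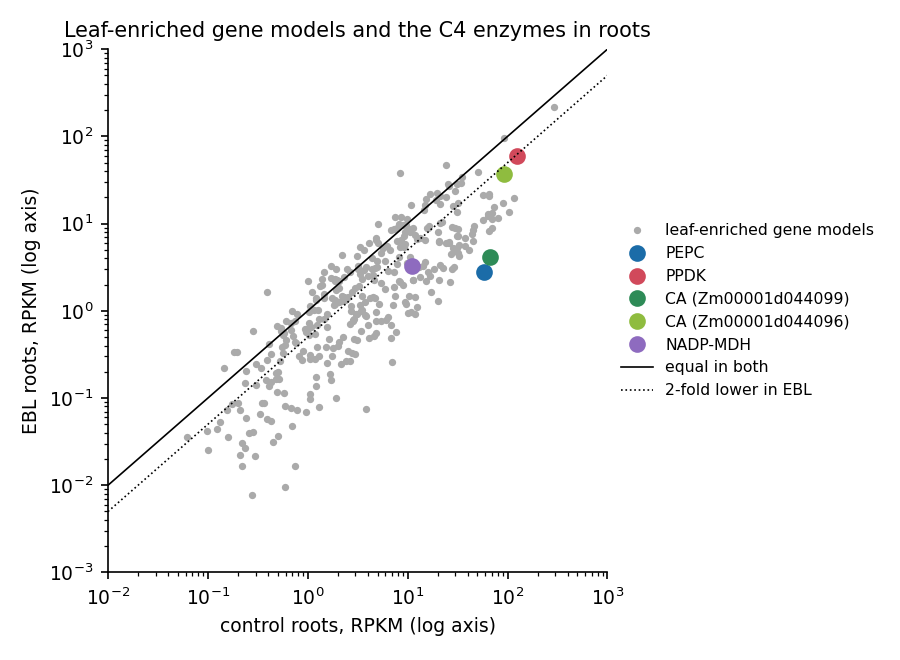
RPKM in EBL roots against control roots (both log axes) for 352 leaf-enriched gene models (grey) and the 5 enzymes (colours), with a solid line for equal values and a dotted line for a 2-fold lower value in EBL. Most grey points, 290 of 352, lie below the solid line, and 0 of the 352 have a lower log2(RPKM + 1) difference than PEPC or the carbonic anhydrase Zm00001d044099. With a pseudocount of 0.1, 1 of the 352 is lower than PEPC and 2 are lower than Zm00001d044099. By plain ratio, as the axes show it, some grey points fall further than both, such as Zm00001d028432, from 3.79 to 0.0745 RPKM.

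Root levels were also expressed as a percent of the level in EBL leaves, which is the same scale for all 5. In control roots the percentages were 1.27% for Zm00001d044099, 1.47% for PEPC, 1.58% for NADP-MDH, 3.77% for PPDK and 12.8% for Zm00001d044096. The median of the 362 leaf-enriched gene models was 1.23%, so that 3 members stood near it and PPDK and Zm00001d044096 above it. The 8-fold limit that defines this group holds its root percentages low, so its medians are set partly by that rule. In EBL roots the percentages were 0.0792% for Zm00001d044099, 0.0710% for PEPC, 0.477% for NADP-MDH, 1.84% for PPDK and 5.14% for Zm00001d044096, with a median of 0.441% for the leaf-enriched gene models. The difference between the root columns was 1.19 percentage points of the leaf level for Zm00001d044099, 1.40 for PEPC, 1.10 for NADP-MDH, 1.93 for PPDK and 7.70 for Zm00001d044096. Their rank by that measure thus differed from their rank by fold, with Zm00001d044096 first. In RPKM, the root columns differed by 55.4 for PEPC, 62.6 for Zm00001d044099, 63.2 for PPDK and 55.1 for Zm00001d044096, which was a similar amount for these 4, and by 7.66 for NADP-MDH.

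In shoots the leaf-enriched gene models were evenly divided, with 179 of 358 lower in EBL and 179 higher and a median difference of 0.001 (log2), while all 5 members were lower. Of the 358, 9 had a lower difference than Zm00001d044099, 30 lower than PEPC and 47 lower than PPDK. For Zm00001d044096 and NADP-MDH these counts were 76 and 139, so the members lay inside the range of the group. When the group was defined without the shoot columns, 399 of 1368 were lower and 969 higher, with a median of 0.16. In leaves 264 of 362 were higher in EBL and 98 lower, with a median of 0.36, while the 3 members compared were lower. The EBL leaf column also had the larger sum over gene models, 1256993 against 1006945 RPKM. The shoot and leaf counts of this group were not repeated with columns scaled to equal sums. Only 27 of the 362 had a lower difference in leaves than NADP-MDH, 59 lower than Zm00001d044096 and 85 lower than Zm00001d044099. In control shoots the members stood at 0.830% (Zm00001d044099), 3.97% (Zm00001d044096), 3.99% (PEPC), 8.08% (PPDK) and 27.2% (NADP-MDH) of the level in EBL leaves, with a median of 5.24% for the leaf-enriched gene models. That median too is held low by the 8-fold limit in the definition of the group.

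The listing of PEPC and PPDK at 0 in control leaves was examined against all gene models. Of 154 gene models at 1000 RPKM or more in EBL leaves, PEPC and PPDK were the only 2 listed at 0 in control leaves, 1.3%. For the other 152 the control value was at least 254 RPKM, and the ratio of control to EBL ran from 0.222 to 1.69 with a median of 0.701. Of the 1435 gene models between 100 and 1000 RPKM in EBL leaves, 0 were listed at 0 in control leaves. In all, 42 gene models at 1 RPKM or more in EBL leaves were listed at 0 in control leaves, and the highest of the other 40 stood at 53.9 RPKM in EBL leaves. In the reverse direction, 1 of the 1279 gene models between 100 and 1000 RPKM in control leaves was listed at 0 in EBL leaves. In shoots and roots 0 gene models at 100 RPKM or more in 1 column were listed at 0 in the other. An exact 0 can be a failed estimate, so no fold and no EBL effect is given for PEPC or PPDK in leaves.

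**Figure D5:**
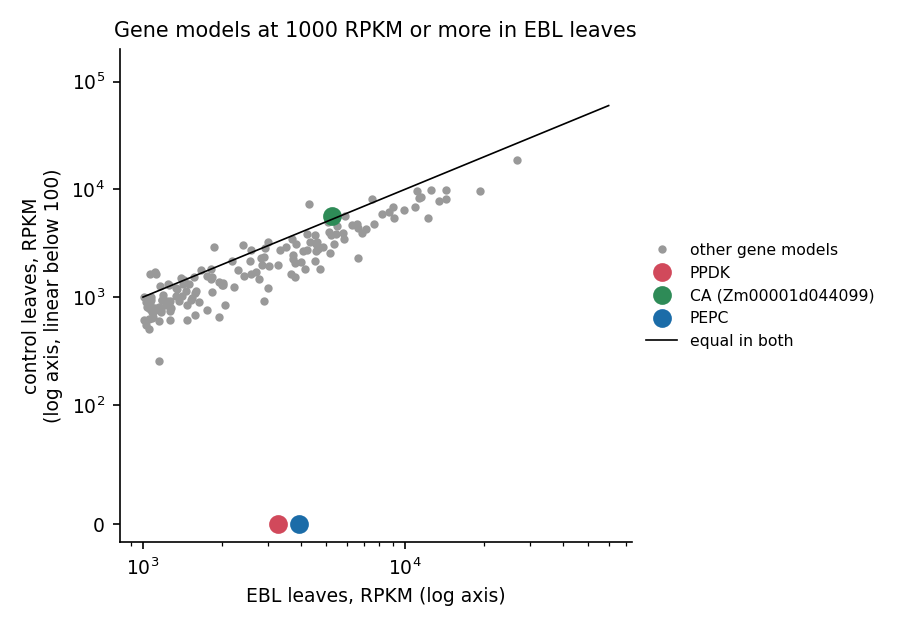
RPKM in control leaves (log axis, linear below 100) against RPKM in EBL leaves (log axis) for the 154 gene models at 1000 RPKM or more in EBL leaves, with a line for equal values. PEPC and PPDK lie at 0, the other 152 at 254 RPKM or more, and the carbonic anhydrase Zm00001d044099 lies close to the line.

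The gene models most like each member were found by the root mean square difference of centred log2(RPKM + 1) profiles among 17032 gene models with at least 10 RPKM in 1 column. This used 6 columns, or the 5 other than control leaves for PEPC and PPDK. NADP-MDH was matched most closely by Zm00001d053007, at a difference of 0.16 (log2), with 962 and 751 RPKM in control and EBL leaves, 222 and 199 in shoots and 12.9 and 5.13 in roots. Zm00001d001857 and Zm00001d008230 followed at 0.22 and 0.23. The nearest to PPDK were Zm00001d049883, Zm00001d011454 and Zm00001d029583, at 0.09, 0.14 and 0.15. In control leaves, a column not used for the likeness, they stood at 140, 982 and 259 RPKM, against 116, 1036 and 351 in EBL leaves. The nearest to PEPC were Zm00001d044399, Zm00001d045620 and Zm00001d005996, less close at 0.45, 0.46 and 0.47. They stood at 2061, 5452 and 2100 RPKM in control leaves, against 3812, 9077 and 4013 in EBL leaves.

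The carbonic anhydrase Zm00001d044099 was closest to Zm00001d051194, at 0.34, which had 1624 and 1063 RPKM in leaves, 10.2 and 5.38 in shoots and 11.8 and 0.913 in roots, control first. Zm00001d037681 and Zm00001d028432 followed at 0.58 and 0.79. Zm00001d044096 was closest to Zm00001d050918, Zm00001d020852 and Zm00001d044906, at 0.33, 0.34 and 0.39. The members were not each other's nearest profiles. Over 6 columns, however, the 0 listed in control leaves enters every distance to PEPC or PPDK, such as 4.98 between Zm00001d044099 and PEPC. Those distances therefore cannot show how alike the profiles are. Over 5 columns the closest member to PEPC was Zm00001d044099, at 1.17 and rank 119, and over 6 columns Zm00001d044096 stood at rank 165 from Zm00001d044099, at 1.98. The table gives no names for these nearest gene models.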

How the data were processed

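Stranded libraries of polyA RNA were made with a TruSeq kit from DNase-treated TRIzol extracts, per the labels' protocols. Per the file headers, the deposited values are RPKM computed by the authors, with 1 column for each group. The submitters' processing notes list Cufflinks 2.2.1, TopHat2 2.0.13, Trimmomatic 0.33 and CASAVA 1.8 without saying what each did, and name the genome build B73 RefGen_v4. The sources used here do not state how the 3 replicates were combined. RPKM makes each value depend on the rest of its column. The members, lists, limits and rules were chosen with earlier results of these data known.

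A gene model was compared if its highest column held 1 RPKM or more and neither column of the comparison was 0; all 5 members passed in shoots and roots and 3 in leaves. Differences are log2 ratios after adding 1 to each RPKM, which understates changes at low values and sets the ranks given by difference, and were counted from 2-fold for EBL and 8-fold for organs. There was no test. The text names the 5 members and the 3 gene models nearest to each in profile. A list of 58 symbols of C4 and photosynthesis genes gave no result: 25 are in the RefSeq table of Zm-B73-REFERENCE-NAM-5.0, and 0 could be paired with a measured gene model. Simulated data with known folds were used to test the counting from 2-fold. Their spread was assumed, and changes were placed only in gene models at 5 RPKM or more in control. They therefore cannot test the rule at lower levels or against the unknown spread of replicates. Alternatives were pseudocounts of 0.1 and 2, median-ratio, quantile and sum scaling, no filter and a mean of at least 5 RPKM. Computations used Python 3.11.15, numpy 2.4.6, pandas 2.3.3 and matplotlib 3.10.9.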

Additional observations from a re-analysis of the deposited data

How the results depend on the processing

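All member differences between EBL and control kept their sign under both pseudocounts and all 4 scalings tried, and all 5 members stayed past 2-fold in roots, PPDK closest to it at -1.09 to -1.004 (log2). With both carbonic anhydrases summed, the root difference was -1.93, against -3.71 and -1.30 for each alone. Under median-ratio scaling NADP-MDH passed 8-fold between shoots and leaves in control columns (3.04), so that 3 members passed in place of 2. The count of all gene models past 2-fold depended more on the settings. With a pseudocount of 0.1, 767 were lower and 476 higher in roots (415 and 155 with 1), 534 and 178 in shoots (111 and 33) and 623 and 2042 in leaves (241 and 1229). With 2, 89 were higher in roots, 63 lower and 16 higher in shoots and 141 lower in leaves. At a mean of at least 5 RPKM these 4 counts were 88, 49, 20 and 148. That filter also left fewer gene models to compare: 17371 in roots, 16946 in shoots and 14748 in leaves, from 25741, 25599 and 25458. With equal gene model sums, 747 were lower and 554 higher in leaves, and without the members in the sum 739 and 560. The cause was not tested. Between organs, median-ratio scaling moved the median of all gene models from -0.74 to -0.001 (log2) for leaves against roots in EBL columns, and the gene models past 8-fold from 1522 higher and 1205 lower to 2192 and 636; with equal sums they were 1183 and 1739. For leaves against shoots, the gene models at least 8-fold higher numbered 646 in EBL and 478 in control columns, against 1283 and 905 under median-ratio scaling and 1257 and 926 with a pseudocount of 0.1. For shoots against roots they numbered 854 and 649, against 1354 and 1114 with a pseudocount of 0.1. No paired analysis was possible because each group has 1 column, and replicates could not be left out for the same reason. Depth is unknown, so low root values, such as 2.81 RPKM for PEPC, have no known precision.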
